A study of Mus musculus with 2 samples.

Results

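The cells described here held high levels of insulin and glucagon mRNA under the same barcode. They were sought in single-cell RNA-seq of pancreatic islets, made as 1 library from Tg7 mice and 1 library from Wild-type littermates. Every barcode with at least 1000 UMIs (unique molecular identifiers, each 1 captured transcript) and at most 20% mitochondrial UMIs was taken as an insulin+Gcg barcode if Ins1 plus Ins2 made up at least 3% and Gcg at least 4% of its UMIs. This rule found 92 of 1006 barcodes in the Tg7 library and 11 of 755 in the Wild-type library, or 103 of the 1761 barcodes past the filters and of 1978 in all. The barcodes were thus chosen by their measured insulin and Gcg shares, which are given below as a description with no test.

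Tg7 mice overexpress miR-7a2 in β-cells. They were 12 weeks old, male and on a C57Bl6 background, as were the Wild-type littermates, and in the single-cell experiment both carried a rat Ins2-Cre transgene with a Rosa26-floxed-Stop-tdTomato reporter, which labels cells in which an insulin promoter has been active. Islets were released with Liberase, dissociated into single cells and captured with the 10x Genomics droplet system. How many mice were pooled into each library is not stated, and cells of 1 library are not replicates. No p-value is therefore given, and the 95% intervals in parentheses reflect only the error of counting. No barcode sequence was found in both libraries.

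β-cells make insulin and α-cells make glucagon, and in the adult mouse islet a cell normally makes one of these hormones and keeps the gene of the other silent. β-cell identity is maintained by transcription factors such as Pdx1, Nkx6-1 and Mafa, while the Iroquois factors Irx1 and Irx2 are found in α-cells, and cells with hormones of both kinds are known from the fetal pancreas and from models in which a β-cell factor is lost. A droplet that captures a pair of cells, or cells that were not separated, also gives a barcode with both hormones. For this reason each value is set beside insulin-only and Gcg-only barcodes of the same library and beside all sums of 1 insulin-only and 1 Gcg-only barcode.

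The overexpressed miRNA and the upstream sequences of 2 hormone genes of the rule are shown because they define the Tg7 mice and the rule. The mature miRNA made from Mir7-2 (GRCm38.p6, chr7:78888295-78888317, plus strand) is printed with its seed, bases 2 to 8, in capitals. Mature miRNAs are not captured by this assay, so its level was not measured.
mmu-miR-7a-5p: uGGAAGACuagugauuuuguugu
Pdx1 and Nkx6-1 are homeodomain proteins, a family that binds sites with a TAAT core. The 250 bases before the RefSeq start of Ins1 (GRCm38.p6, chr19:52264047-52264296, plus strand) and of Gcg (chr2:62483654-62483903, minus strand) are printed with TAAT on either strand, that is TAAT or ATTA, in capitals.
Ins1: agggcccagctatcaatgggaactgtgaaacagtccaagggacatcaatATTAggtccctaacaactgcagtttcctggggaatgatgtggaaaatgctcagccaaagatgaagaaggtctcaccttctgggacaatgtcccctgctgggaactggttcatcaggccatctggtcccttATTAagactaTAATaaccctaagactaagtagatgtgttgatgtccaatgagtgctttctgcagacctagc
Gcg: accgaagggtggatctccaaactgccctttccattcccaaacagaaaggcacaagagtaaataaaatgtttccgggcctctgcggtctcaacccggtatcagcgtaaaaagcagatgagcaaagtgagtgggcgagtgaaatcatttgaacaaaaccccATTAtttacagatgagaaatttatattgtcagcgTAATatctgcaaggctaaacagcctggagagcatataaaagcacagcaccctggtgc
Ins1 held 3 such matches and Gcg 2 within these windows. Of 27025 RefSeq promoter windows of this length, 55.3% held at least 1 match, 31.2% at least 2 and 17.8% at least 3, so matches in this number are common and mark no site.

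Barcodes with insulin and Gcg were a larger share of the Tg7 library than of the Wild-type library. They made up 9.15% (7.44 to 11.1) of Tg7 barcodes and 1.46% (0.729 to 2.59) of Wild-type barcodes past the filters. Among all barcodes at the Gcg threshold the share was 32.3% (26.9 to 38.0) of 285 in Tg7 and 6.40% (3.24 to 11.2) of 172 in Wild-type. Among all barcodes at the insulin threshold it was 12.8% (10.5 to 15.5) of 717 in Tg7 and 2.16% (1.08 to 3.83) of 509 in Wild-type. The intervals of the libraries do not overlap for any of these denominators, but with 1 library each the spread between mice is unknown. The number of cells loaded and the completeness of dissociation, which set how many droplets hold several cells, cannot be told apart from genotype in this design.

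Insulin was the larger of both hormones in most of these barcodes. In the 92 Tg7 barcodes, insulin took 3.54% of UMIs at the lowest, 19.5% at the median and 44.9% at the highest, and Gcg took 4.16%, 7.80% and 31.8%. In the 11 Wild-type barcodes, insulin took 7.72%, 35.3% and 59.5%, and Gcg took 4.89%, 9.83% and 39.5%. Gcg exceeded insulin in 23 of 92 Tg7 and in 2 of 11 Wild-type barcodes, and 22 Tg7 and 3 Wild-type barcodes held at least 10% of each. The insulin share ran against the Gcg share across the 92 Tg7 barcodes (Pearson r = -0.34, Spearman rho = -0.28), which share a library and whose shares are parts of the same total.

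The gap between barcodes with and without a given hormone was filled unevenly. Among Tg7 barcodes with insulin, 570 of 717 held under 0.1% Gcg, 40 held 1 to 4% and 92 held 4% or more. Among Wild-type barcodes with insulin the same counts were 493, 3 and 11 of 509. The insulin axis was emptier: of 285 Tg7 barcodes with Gcg, 2 held 1 to 3% insulin and none 0.5 to 1%. In Tg7, the barcodes just inside the Gcg threshold held 4.16%, 4.16% and 4.21%, and those just outside held 3.98%, 3.98% and 3.97%. Just inside the insulin threshold the Tg7 barcodes held 3.54%, 3.70% and 4.23%, and those just outside held 1.32%, 1.11% and 0.288%. The Gcg threshold thus cut through a continuous run of Tg7 barcodes, while the insulin threshold lay in a gap.

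**Figure D1:**
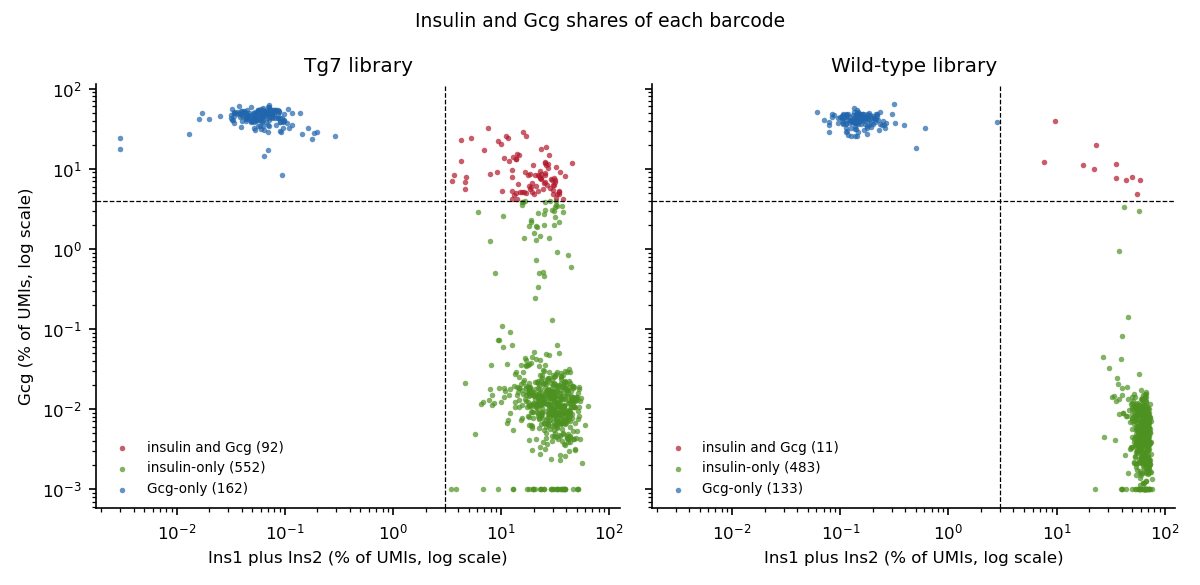
Each point is a barcode, with its share of Ins1 plus Ins2 UMIs on the horizontal axis and of Gcg UMIs on the vertical axis, both in percent on log scales; points on the lower edges have no UMI of that hormone and dashed lines mark 3% insulin and 4% Gcg. The upper right corner holds 92 Tg7 and 11 Wild-type barcodes, and the area just below it holds more Tg7 than Wild-type barcodes.

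The references for what follows are 552 Tg7 and 483 Wild-type insulin-only barcodes and 162 Tg7 and 133 Wild-type Gcg-only barcodes, each below the threshold of the other hormone and below 1% Sst (somatostatin) and 4% Ppy (pancreatic polypeptide). Insulin-only barcodes held a median of 0.0123% Gcg in Tg7 and 0.00486% in Wild-type, and Gcg-only barcodes a median of 0.0607% and 0.144% insulin. Cells that should lack both hormones gave values of the same order: 9 Tg7 barcodes with endothelial markers held a median of 0.0219% Gcg and 0.0384% insulin, and 22 with macrophage markers 0.0176% and 0.0698%. None of these barcodes reached either threshold, and both thresholds lay far above their medians.

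A sum of 1 insulin-only and 1 Gcg-only barcode met the rule in 78760 of 89424 Tg7 pairs (88.1%) and in 61336 of 64239 Wild-type pairs (95.5%). The Tg7 insulin+Gcg barcodes held 2447 UMIs at the lowest, 44324 at the median and 86701 at the highest, against medians of 28477 in insulin-only, 16073 in Gcg-only barcodes and 48179 in summed pairs. They were thus deeper than most insulin-only barcodes (76 of 92 above that median), shallower than the median pair in 59 of 92 cases, and all were within the range of insulin-only barcodes, whose deepest held 105450 UMIs. The 11 Wild-type barcodes held a median of 45890 UMIs, against 49719 in insulin-only, 15849 in Gcg-only barcodes and 66228 in pairs. In Wild-type 5 of 11 lay above the insulin-only median and 9 of 11 below the median pair. The ratio of the median depth to that of pairs was 0.920 in Tg7 and 0.693 in Wild-type.

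Scrublet, which scores each barcode by its likeness to simulated doublets, called 9 of 92 Tg7 insulin+Gcg barcodes, 4 of 552 insulin-only and 0 of 162 Gcg-only barcodes. Median scores were 0.0243, 0.0127 and 0.00557 in the same order. In Wild-type it called 3 of 11 insulin+Gcg, 3 of 483 insulin-only and 0 of 133 Gcg-only barcodes. The score was thus higher in insulin+Gcg barcodes, but most of them were not called. The study removed doublets with a different caller before clustering, and which of the barcodes described here it kept was not tested.

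Of the 4 marker genes given with the rule, Ins2 and Gcg belong to the rule itself, so their UMIs in all 92 Tg7 barcodes are no separate check. Ttr also had UMIs in all 92, but so it did in 547 of 552 insulin-only and 161 of 162 Gcg-only barcodes. Irx2, an α-cell transcription factor of low abundance, was found in 53 of 92, against 102 of 162 Gcg-only and 48 of 552 insulin-only barcodes. Ttr encodes transthyretin, a carrier of thyroid hormone that α-cells express strongly. Ttr counts were 7 UMIs at the lowest, 296.5 at the median and 1484 at the highest in insulin+Gcg barcodes, with medians of 65 in insulin-only and 508 in Gcg-only barcodes. The Ttr counts therefore overlapped with those of both references and lay between them.

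Counted as UMIs per barcode without scaling, the β-cell part of the Tg7 insulin+Gcg barcodes was close to that of a whole insulin-only barcode while the α-cell part differed by gene against a whole Gcg-only barcode. Insulin averaged 9106 UMIs, which is 0.915 times the 9952 UMIs of insulin-only barcodes. Gcg averaged 4136 UMIs, which is 0.556 times the 7442 UMIs of Gcg-only barcodes, and Ttr averaged 346 UMIs or 0.590 times the Gcg-only mean. Lower Gcg than in Gcg-only barcodes was seen across the distribution, with a median of 3539.5 UMIs (123 to 16602) against 7416 UMIs (244 to 17170), although the ranges overlapped. The α-cell factors stood closer to their reference than Gcg and Ttr did, while the β-cell factors and insulin were about equally near to theirs. Closeness to the Gcg-only mean was not particular to the α-cell factors. The α-cell genes without Ttr together averaged 70.0 UMIs, or 1.03 times the Gcg-only mean of 68.2, and 25.4 in insulin-only barcodes. Gpx3, another gene of that list, gave 4557 of these 6438 UMIs. The α-cell factors Irx1, Irx2 and Pou3f4 together averaged 1.92 UMIs in insulin+Gcg barcodes, 0.159 in insulin-only and 2.19 in Gcg-only barcodes. Irx1 averaged 0.815 UMIs or 0.869 times the Gcg-only mean, and Irx2 1.07 UMIs or 0.850 times. The 4 β-cell factors (Mafa, Pdx1, Nkx6-1, Mnx1) together averaged 4.84 UMIs in insulin+Gcg barcodes, 5.27 in insulin-only and 0.117 in Gcg-only barcodes. Nkx6-1, which keeps α-cell genes off in β-cells, averaged 3.37 UMIs or 0.894 times the insulin-only mean, and Pdx1, the main activator of insulin genes, 0.793 UMIs or 0.909 times.

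In Wild-type insulin, Gcg and the factors were below their references. Insulin averaged 19001 UMIs in the 11 Wild-type insulin+Gcg barcodes, which is 0.571 times the insulin-only mean of 33292. Gcg averaged 5168 UMIs, or 0.758 times the Gcg-only mean of 6816. The α-cell factors averaged 1.36 UMIs, or 0.574 times the Gcg-only mean, and the β-cell factors 12.1 UMIs, or 0.622 times the insulin-only mean. The insulin count was thus further below its reference in Wild-type than in Tg7, and the Gcg count nearer to it. The α-cell genes without Ttr together averaged 58.6 UMIs, or 1.40 times the Gcg-only mean, so not all of the α-cell part was below it. With 11 barcodes these means can rest on a few of them. In the 6 Wild-type barcodes that held neither 1% Sst nor 4% Ppy, insulin had 0.746 times the insulin-only mean and Gcg 0.895 times the Gcg-only mean. The β-cell factors had 0.901 times the insulin-only mean, nearer to it than with the 5 barcodes that held Sst. Of the 133 β-cell factor UMIs of the 11 barcodes, 37 came from 1 barcode. That barcode is among the 6, so their 0.901 times the insulin-only mean rests in part on it. The ratio of the 6 without that barcode was not tested.

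**Figure D2:**
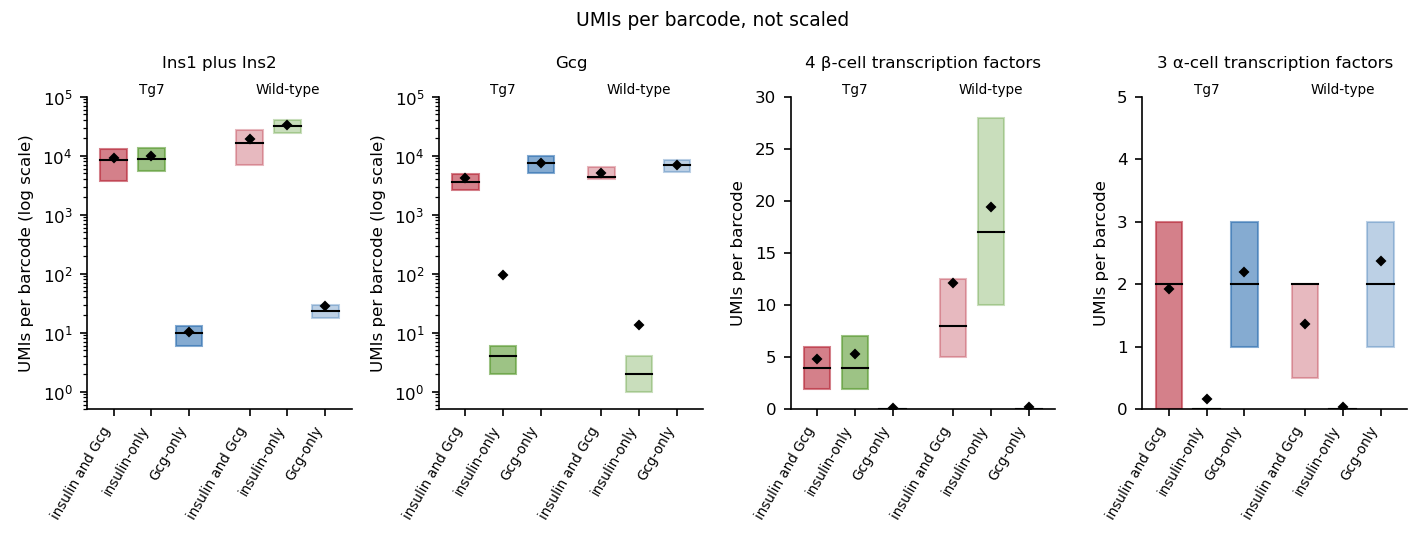
UMIs per barcode, not scaled, of insulin and Gcg (log scale) and of the summed β-cell and α-cell transcription factors (linear scale), in insulin+Gcg, insulin-only and Gcg-only barcodes of the Tg7 and Wild-type libraries; boxes span the quartiles, lines are medians and diamonds means. In Tg7 the mean of the α-cell factors was 1.92 UMIs in insulin+Gcg and 2.19 in Gcg-only barcodes, and that of the β-cell factors 4.84 in insulin+Gcg and 5.27 in insulin-only barcodes.

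Factors of both lineages were found under the same barcode more often than in either reference. At least 1 UMI of an α-cell factor and 1 of a β-cell factor were present in 64 of 92 Tg7 insulin+Gcg barcodes (69.6%), against 81.8% of summed pairs, 10.7% of insulin-only and 7.41% of Gcg-only barcodes. The classes differ in depth, with medians of 24212, 25660, 15302 and 8217 UMIs of genes other than hormones in that order. With each barcode thinned to 2000 of these UMIs, which left out 1 insulin+Gcg, 15 insulin-only and 12 Gcg-only barcodes, both kinds of factor were expected in 4.95% of insulin+Gcg barcodes, 4.78% of pairs, 0.632% of insulin-only and 1.03% of Gcg-only barcodes. The share was thus below that of pairs at full depth and near it at equal depth. In Wild-type 8 of 11 insulin+Gcg barcodes and 81.2% of pairs held both, and 7.19% and 11.7% after thinning. Irx1 was detected in 44 of 92 Tg7 insulin+Gcg barcodes (47.8%) and in 59.1% of pairs, and Nkx6-1 in 82 of 92 (89.1%) and in 90.1% of pairs. Mafa, the factor of mature β-cells, was found in 18 of 92 (19.6%), against 25.9% of pairs and 25.5% of insulin-only barcodes.

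The tdTomato reporter gave a label of insulin promoter activity that the rule did not use. It had a UMI in 26 of 92 Tg7 insulin+Gcg barcodes (28.3%, 19.4 to 38.6), in 175 of 552 insulin-only (31.7%) and in 0 of 162 Gcg-only barcodes, which allows a share of up to 1.85% of barcodes with a UMI and sets no limit on cells with the label. Thinned to 2000 UMIs of other genes, the shares were 2.65% in insulin+Gcg and 4.70% in insulin-only barcodes. The reporter level of insulin+Gcg barcodes was 0.994 times (0.684 to 1.40) that of summed pairs. In Wild-type 3 of 11 insulin+Gcg, 52.8% of insulin-only and 1.50% of Gcg-only barcodes held a reporter UMI.

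Gene by gene, the Tg7 insulin+Gcg barcodes resembled summed pairs more than either reference alone. For this and the following comparisons, counts were summed over barcodes and scaled to 10000 UMIs of genes other than 7 hormone genes (Ins1, Ins2, Iapp, Gcg, Sst, Ppy and Pyy), and the pair level is the mean over the pairs that met the rule. Over 8433 genes with at least 50 UMIs observed plus expected, log2 levels correlated across genes at r = 0.988 with pairs, 0.970 with insulin-only and 0.870 with Gcg-only barcodes. Within 1.5-fold of the insulin+Gcg level were 97.6% of genes in pairs, 93.6% in insulin-only and 65.8% in Gcg-only barcodes. These coefficients are across genes of the same library and are descriptions. Insulin-only UMIs make up the larger part of a pair, so the insulin-only profile was itself near that of pairs.

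At least 2-fold above the pair level were 10 of 8433 genes (0.119%), and at least 2-fold below it were 7 (0.083%). Against insulin-only barcodes 96 of 8480 genes (1.13%) were at least 2-fold higher and 13 (0.153%) lower, and against Gcg-only barcodes 915 of 8178 (11.2%) were higher and 188 (2.3%) lower. Only 3 of 8695 genes (0.0345%) lay at least 2-fold above both references and 1 (0.0115%) at least 2-fold below both. These were Fam159b, Ly6h and Stxbp5l above and Sppl2b below. In Wild-type, with 1694 genes measured at this depth, 9 (0.531%) were at least 2-fold above pairs and 6 (0.354%) below, and the correlation with pairs was 0.967.

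**Figure D3:**
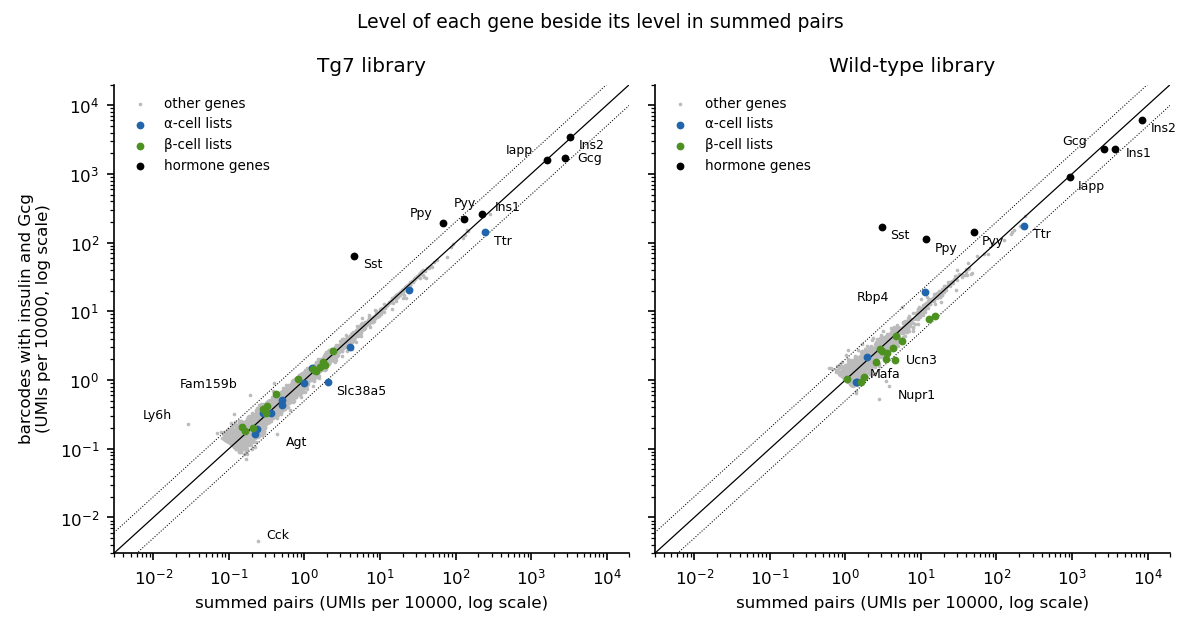
Level of each measured gene in insulin+Gcg barcodes (vertical) beside its level in summed pairs (horizontal), in UMIs per 10000 UMIs of genes other than hormones, on log scales, for the Tg7 and Wild-type libraries; the solid line is equality and dotted lines are 2-fold. In Tg7 10 genes lie above the upper and 7 below the lower dotted line, hormone genes not counted.

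Most of the measured α-cell genes were above insulin-only barcodes. Of the 16 α-cell genes listed, 11 could be measured against insulin-only barcodes, 8 above and 3 below. At least 2-fold higher were 6 and 2-fold lower 0, with a median log2 ratio of 1.25 where all genes had -0.025. Of all genes, 1.13% were at least 2-fold higher and 0.153% lower. Both measured α-cell transcription factors were among the 6, with a median of 3.89. Both reached the gene minimum mainly through the insulin+Gcg barcodes, with 12 UMIs of Irx1 and 65 of Irx2 in insulin-only barcodes. Against Gcg-only barcodes 7 of 12 measured α-cell genes were at least 2-fold lower, as were 2.3% of all genes. The α-cell median was -1.57 where all genes had 0.24. Beside pairs, 3 of 12 were above and 9 below, 0 were at least 2-fold higher and 1 lower, with a median of -0.21 where all genes had 0.063 and 62.2% of all genes were above. With hormone thresholds of 6% and 8% this median was 0.029, so its direction rests on the thresholds.

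Among the factors, Irx1 had 0.335 UMIs per 10000 in insulin+Gcg barcodes, 0.0111 in insulin-only, 1.09 in Gcg-only barcodes and 0.359 in pairs, a ratio to pairs of 0.935 (0.736 to 1.17). Irx2 had 0.438, 0.0603, 1.46 and 0.501 in the same order, a ratio to pairs of 0.874 (0.710 to 1.07). Both intervals held 1. Pou3f4 was under the minimum, with a UMI in 4 of 92 insulin+Gcg and 0 of 162 Gcg-only barcodes. Of the other α-cell genes, Slc38a5, a glutamine transporter of α-cells, had 0.930 UMIs per 10000 against 2.04 in pairs (ratio 0.457, 0.397 to 0.523) and was the gene of the list that lay at least 2-fold lower. In Gcg-only barcodes 148 of its 598 UMIs came from 1 barcode, so its pair level rests in part on that barcode. Whether the 2-fold call holds without it was not tested. Gc, the vitamin D-binding protein, had a ratio of 0.745 and Dpp10, an accessory subunit of potassium channels, 0.740, while Slc7a2, a cationic amino acid transporter, had 1.20 and Gria3, a glutamate receptor subunit, 1.16. Gc averaged 8.36 UMIs in Tg7 insulin-only and 2.99 in Tg7 Gcg-only barcodes, so in this library it did not set α-cells apart.

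The β-cell genes were clearly above Gcg-only barcodes. All 12 β-cell genes of the 24 listed that could be measured against them were at least 2-fold higher, with a median log2 ratio of 5.24. All genes had a median of 0.24, and 11.2% of them were at least 2-fold higher. Gcg-only barcodes held few or no UMIs of most of these β-cell genes. Such genes reached the gene minimum mainly through the insulin+Gcg barcodes, so the count of 12 was largely set by that minimum. Against insulin-only barcodes 14 of 15 were lower, none by 2-fold, where 4562 of all 8480 genes were lower. The β-cell median was -0.40, beside -0.025 for all genes. Beside pairs 11 of 15 were above and 4 below, none by 2-fold, with a median of 0.14, a share above pairs near the 62.2% of all genes. With hormone thresholds of 6% and 8% the median was -0.060, so its direction rests on the thresholds too. Nkx6-1 had 1.39 UMIs per 10000 in insulin+Gcg barcodes, 1.93 in insulin-only, 0.122 in Gcg-only barcodes and 1.35 in pairs, a ratio to pairs of 1.02 (0.914 to 1.15), and Pdx1 had a ratio of 1.06 (0.835 to 1.34). Mafa had a ratio of 1.38, but 43.5% of its UMIs came from 1 barcode, and without that barcode the ratio was 0.778.

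Of the other β-cell genes, Ucn3, a hormone of mature β-cells, had the highest ratio to pairs at 1.50 (1.26 to 1.76), followed by P2ry1, a purinergic receptor, at 1.35 and Slc2a2, the glucose transporter GLUT2, at 1.32 (1.07 to 1.62). Gjd2, the gap junction protein of β-cells, stood at 1.24 and G6pc2, the islet glucose-6-phosphatase, at 1.07. Pcsk1, which cleaves proinsulin, had 0.947 and Hadh, an enzyme of fatty acid oxidation, 0.890. Of these genes of mature β-cells, Ucn3 and Slc2a2 were above pairs also without the barcode with the most UMIs of each (1.33 and 1.18), whereas G6pc2 then had 0.983 and Mafa, as given, 0.778 times the pair level.

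The hormone genes that the rule used are given as a description. Ins2 had 1.06 and Ins1 1.17 times the pair level, while Gcg had 0.603 times. Ttr, which the rule did not use, had 0.574 times. Ins1 made up a median of 5.14% of insulin UMIs in insulin+Gcg and 5.16% in insulin-only barcodes of Tg7. Iapp, the amyloid peptide released with insulin, had 0.965 times the pair level. Gcg and Ttr, the abundant α-cell transcripts, thus lay below pairs, whereas the intervals of Irx1 and Irx2 held the pair level.

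**Figure D4:**
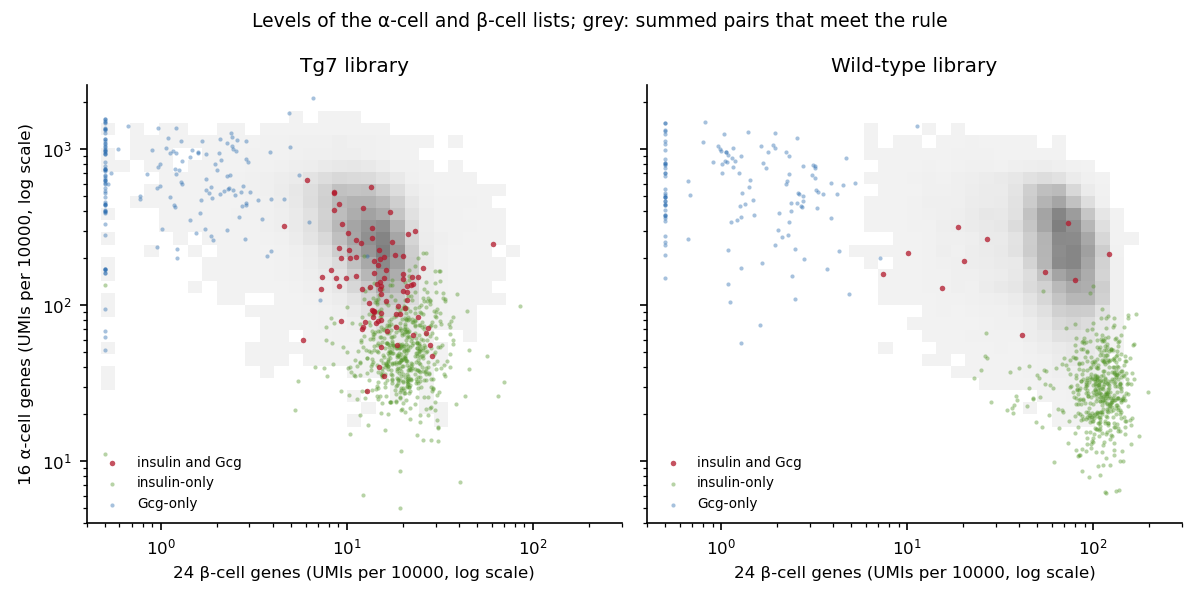
Summed level of 16 α-cell genes (vertical) against that of 24 β-cell genes (horizontal) in each barcode, in UMIs per 10000 UMIs of genes other than hormones on log scales, with the density of summed pairs in grey; points on the left edge have no β-cell gene UMI. Tg7 insulin+Gcg barcodes had medians of 136 for the α-cell and 14.8 for the β-cell genes, and pairs 267 and 13.8, so they lie between the grey area's centre and the insulin-only barcodes; Ttr makes up 83.2% of the α-cell UMIs in these barcodes, and without it the medians are 27.0 and 33.0.

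The α-cell part varied with the Gcg share within the Tg7 barcodes. Across the 92 barcodes the Gcg share and the summed level of α-cell genes had r = 0.69 and rho = 0.66, and without Ttr, which gave 83.2% of these α-cell UMIs, r = 0.67 and rho = 0.59. The Ttr level alone had r = 0.66 and rho = 0.62 with the Gcg share, and the insulin share and the summed level of β-cell genes r = 0.36 and rho = 0.28. The levels of the α-cell and β-cell genes had r = -0.24 and rho = -0.32. All barcodes are of the same library, and each level is a part of its barcode's total, so these are descriptions.

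The same was seen when all Tg7 barcodes with insulin but without Sst or Ppy were ordered by Gcg share, below the threshold too. The α-cell factors had 0.0549 UMIs per 10000 in 506 barcodes with under 0.1% Gcg, 0.207 in 12 barcodes with 0.1 to 1%, 0.262 in 34 barcodes with 1 to 4%, 0.652 in 52 barcodes with 4 to 10% and 1.29 in 21 barcodes with 10% or more. The β-cell factors had 2.71, 2.73, 2.64, 2.12 and 1.91 UMIs per 10000 in the same order. These levels rest on 51, 7, 30, 85 and 55 UMIs of the α-cell factors. The α-cell factors were therefore higher above the threshold than below it, while the β-cell factors differed little below the threshold and were lower above it. An α-cell factor was detected in 7.71% of barcodes in the lowest class and in 18 of 34 barcodes with 1 to 4% Gcg, which held a median of 61947 UMIs against 27682 in the lowest class. The barcodes just below the threshold were thus the deepest, with 46973 UMIs at 4 to 10% and 34367 at 10% or more. In Wild-type the classes from 0.1% upwards held 2, 2, 3 and 3 barcodes.

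**Figure D5:**
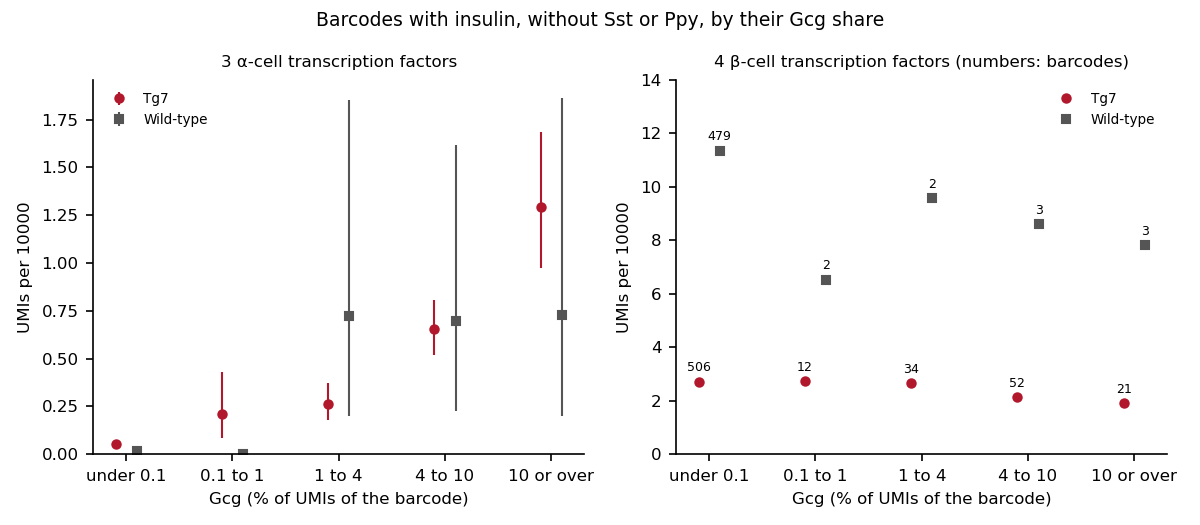
Level of the 3 α-cell and the 4 β-cell transcription factors, in UMIs per 10000 UMIs of genes other than hormones, in barcodes with insulin and without Sst or Ppy, by their Gcg share; bars are 95% Poisson intervals of the α-cell factors (none where no UMI was found), and numbers are barcodes. In Tg7 the α-cell factors go from 0.0549 in the lowest class to 1.29 in the highest, and the β-cell factors from 2.71 to 1.91.

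Some insulin+Gcg barcodes carried a further islet hormone. At least 1% Sst was found in 13 of 92 Tg7 and 5 of 11 Wild-type barcodes, and at least 4% Ppy in 8 of 92 and 0 of 11. In Tg7 19 of 92 held either and 2 held both. Barcodes with these hormones were left out of the references but not out of the insulin+Gcg barcodes, and Sst accordingly stood at 14.1 times, Ppy at 2.82 times and Pyy, peptide YY, at 1.68 times the pair level in Tg7. Without the 19 barcodes these ratios were 1.89, 1.19 and 1.03, and Gcg had 0.578 times the pair level.

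Several genes above the pair level went with these 19 barcodes, without which 4 genes in place of 10 were at least 2-fold higher. Ly6h, a GPI-anchored protein of the Ly6 family, had 52 UMIs in 14 barcodes and 7.97 times the pair level with all 92 barcodes, but 1.79 times without the 19. Fam159b had 137 UMIs in 35 barcodes and ratios of 3.21 and 1.91, Stxbp5l, a syntaxin-binding protein, 2.74 and 1.67, and Cd24a, a surface glycoprotein, 2.26 and 1.46. Gap43, a growth-associated protein of neurons, had 2.25 with all barcodes and 0.990 without the 19. Of the δ-cell genes, 2 of 5 could be measured, and both were above pairs with a median log2 ratio of 0.74: Ffar4, a fatty acid receptor of δ-cells, at 2.01 times and Rbp4, retinol-binding protein, at 1.39 times. Without the 19 barcodes Ffar4 had 1.66 times the pair level on 28 UMIs and Rbp4 0.715 times, so neither stayed 2-fold higher and Rbp4 turned. Of 4 γ-cell genes 2 were measured, with a median of 0.32, and Tspan8 stood at 1.64 and Cartpt at 0.944 times. Without the 19, Tspan8 kept 53 of its 99 UMIs and lay nearer to pairs, and Cartpt had 1.15 times the pair level. Ehf, an epithelial transcription factor, had 39 UMIs and 2.20 times the pair level, but 1.54 times without the 19. The other genes at least 2-fold above pairs, Ube3b, Cenpj and Pou5f2, had 38 to 55 UMIs each, and 2.11, 2.42 and 2.50 times the pair level without the 19.

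Of the 7 genes at least 2-fold below pairs, Slc38a5 and Agt, which encodes angiotensinogen, are transcripts that were higher in Gcg-only than in insulin-only barcodes. Agt had 0.165 UMIs per 10000 in insulin+Gcg barcodes, 0.0715 in insulin-only, 1.20 in Gcg-only barcodes and 0.435 in pairs (ratio 0.380, 0.268 to 0.524). Cck, the gut and neuronal peptide cholecystokinin, had 1 UMI against 54.3 expected, but 264 of the 380 insulin-only UMIs of Cck came from 1 barcode. Apof, Cdo1, Asrgl1 and Prdx3 had 16 to 24 UMIs each. Slc38a5 without the 19 barcodes had a ratio of 0.520, and its pair level rests in part on 1 Gcg-only barcode, as given above. Among genes with at least 100 UMIs observed plus expected, the next lowest were Serpine2 (0.563), Ttr, Urod (0.583) and Fam192a (0.611), and Plcb4, Samd10, Tspan8 and Sgsm2 were among the next highest, between 1.62 and 1.64.

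The other gene lists lay near the pair level, beside which 62.2% of all genes were above. Of the 22 genes of all islet endocrine cells all were measured, 11 above and 11 below pairs, none by 2-fold, with a median log2 ratio of 0.0085. Kcnj11 (1.28) and Abcc8 (1.20), the subunits of the ATP-sensitive potassium channel, and Foxa2 (1.23) were above, whereas Chga (0.794), a granule protein, and Pcsk2 (0.822), which processes prohormones, were below. The 14 unfolded protein response genes had a median of -0.031, with 5 above and 9 below and none by 2-fold, and included Atf3 at 0.768, Hspa5 at 0.888 and Atf4 at 1.09. Of the immediate early genes, which dissociation induces, 11 of 12 were measured with a median of 0.023, 7 above and 4 below and none by 2-fold, with Fosb at 1.23, Egr1 at 1.18 and Nr4a1 at 0.702.

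Genes of immature or dedifferentiated cells were no exception. Of 15 listed 10 were measured with a median log2 ratio of 0.23, 0 at least 2-fold higher and 1, Cck, lower. Pdyn, prodynorphin, had 1.28 times, Sox4, a progenitor factor, 1.24 times and Gast, gastrin, 0.748 times the pair level. Of 14 epithelial and mesenchymal genes that the study names with data of these mice in view, which makes the list no independent evidence, 9 were measured with a median of 0.17. Ehf was the single one at least 2-fold higher, and none was without the 19 barcodes with Sst or Ppy, while Cd44 stood at 1.20, Cdh1, E-cadherin, at 1.16, Cdh2, N-cadherin, at 1.13 and Serpine2 at 0.563. Of 12 genes that β-cells normally keep silent 2 were measured, Igfbp4 (1.04) and Oat (0.877), with a median of -0.066, and of 10 proliferation genes 2, Tyms (1.48) and Pcna (0.869), with a median of 0.18.

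Cells from outside the endocrine islet were not seen in these barcodes. In none of the 92 did the summed endothelial, macrophage, acinar, duct, stellate, Schwann or lymphocyte markers exceed 50 UMIs per 10000. The highest sums were 1.03 for endothelial, 5.40 for macrophage and 38.2 for duct markers, with 2 of 9, 8 of 11 and 3 of 4 markers having any UMI. Of the macrophage markers 2 of 11 reached the gene minimum (median log2 ratio to pairs 0.0084) and of the duct markers 2 of 4 (median -0.033), whereas no acinar, endothelial, lymphocyte, stellate or listed Schwann marker did. The mitochondrial share had a median of 4.43%, against 4.55% in insulin-only and 3.38% in Gcg-only barcodes.

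How the 11 Wild-type insulin+Gcg barcodes stood beside pairs rested on the 5 of them that held Sst. With all 11, each of the 14 measured β-cell genes was below pairs, 1 by 2-fold, with a median log2 ratio of -0.59 where all genes had 0.032. Without the 5, 8 of 11 measured β-cell genes were above pairs and 3 below, none by 2-fold, and the median was 0.12 where all genes had 0.028. Mafa had 0.580 times the pair level with all 11 and 1.09 times without the 5, Ins1 0.627 and 0.951 times, and Ins2 0.714 and 0.960 times. Ucn3 had 1.94 UMIs per 10000 with all 11 against 4.59 in pairs, a ratio of 0.422, and 0.670 without the 5, where it was no longer 2-fold lower. The β-cell genes thus lay nearer to pairs without the barcodes that also held Sst, but few barcodes carry this. Of the 50 Mafa UMIs 26 came from 1 barcode, without which Mafa had 0.279 times the pair level. The 6 barcodes without Sst held 48 of the 50 UMIs, so that barcode is among them. Their ratio of 1.09 for Mafa thus rests largely on it. The level of Mafa in these 6 without it was not tested.

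The median of the α-cell genes of the Wild-type barcodes turned too, but over 5 and then 3 genes, so part of the change can come from genes that dropped out. With all 11, 3 of 5 measured α-cell genes were below pairs with a median of -0.42, and without the 5, 2 of 3 were above with a median of 0.41. Gcg had 0.871 times the pair level with all 11 and 1.10 times without the 5. Sst stood at 55.0, Ppy at 9.41 and Pyy at 2.85 times the pair level with all 11, and without the 5 Ppy stood at 3.67 and Pyy at 2.15 times. Rbp4 was 2.01 times as high as in pairs with all 11 and 0.607 times without the 5, so its call was lost and its direction turned. Nupr1, a stress-induced gene, and Atf5 had 20 and 13 UMIs and were at least 2-fold lower with all 11 and without the 5 (0.412 and 0.257 times), and 18 of the 20 UMIs of Nupr1 came from 1 barcode.

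Compared with Wild-type, the Tg7 insulin+Gcg barcodes held less of the β-cell genes. Of 1696 genes measured in both, 16 (0.943%) were at least 2-fold higher in Tg7 and 36 (2.12%) lower. All 11 measured β-cell genes were lower, 8 of them by 2-fold, with a median log2 ratio of -1.38 where all genes had -0.028. Mafa had 0.206 UMIs per 10000 in Tg7 and 2.02 in Wild-type (ratio 0.102, 0.0669 to 0.155), Slc2a2 0.425 and 2.50 (ratio 0.170), and G6pc2 1.86 and 7.78 (ratio 0.239). Insulin-only barcodes of the same libraries had ratios of 0.0398, 0.0832 and 0.125 for these genes. The differences between the genotypes were thus in the same direction in insulin-only barcodes, and larger there. Without barcodes with Sst or Ppy all 9 measured β-cell genes were lower in Tg7, 8 by 2-fold, with a median of -1.69, and the ratios of the same genes were 0.0566, 0.0864 and 0.148.

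Ero1lb, an oxidase of the endoplasmic reticulum that folds proinsulin, had a ratio of 0.185, Krt8, keratin 8, 0.263, Prss53, a serine protease, 0.296 and Tuba1a, an α-tubulin, 0.343. Spp1, osteopontin, reached 874 UMIs in Tg7 barcodes against 4 in Wild-type ones, a ratio of 24.2 (9.43 to 89.2), and 12.3 in insulin-only barcodes. Chgb, chromogranin B, was 2.90 times, Fkbp11, a prolyl isomerase of the endoplasmic reticulum, 2.76 times, Rgs2, a regulator of G-protein signalling, 2.57 times and Tmem176a 2.22 times as high in Tg7. Gcg itself had 0.743, Ins1 0.114, Ins2 0.571 and Iapp 1.77 times the Wild-type level. Of the 16 higher genes 11 were also at least 2-fold higher in insulin-only barcodes and all 16 had the same direction, and of the 36 lower genes 24 were also lower by 2-fold and 34 had the same direction. Most of the genes called thus had the same direction in insulin-only barcodes. The share with the same direction among all 1696 measured genes was not counted, so whether the called genes exceed it was not tested.

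Of the other groups, the 2 measured genes of immature cells were higher in Tg7 with a median log2 ratio of 0.70, neither by 2-fold, and the 4 measured epithelial and mesenchymal genes named by the study were lower with a median of -0.25, 1 by 2-fold. The immediate early genes had a median log2 ratio of -0.47 with 1 of 9 at least 2-fold lower, the unfolded protein response genes -0.25 with 0 of 12, and the genes of all endocrine cells -0.23 with 2 of 18 higher and 1 lower. Of 4 measured α-cell genes, with a median of -0.11, Gc was at least 2-fold higher (3.24 times) and none lower. Gc was itself higher in Tg7 insulin-only than in Tg7 Gcg-only barcodes, at 8.36 against 2.99 UMIs per barcode, so its value does not speak for the α-cell part. Nkx6-1 had 0.529 times the Wild-type level. The Wild-type side rests on 11 barcodes with 248029 UMIs of genes other than hormones, so its low genes are measured on few UMIs.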

How the data were processed

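Pancreatic islets of 1 Tg7 and 1 Wild-type group were measured by 10x single-cell RNA-seq, 1 library each, with 1123 and 855 barcodes. The authors deposited raw UMI counts per gene and barcode, made per the submitters' processing notes with bcl2fastq 2.17.1.14, STAR and Cell Ranger 3.0.2 on mouse build mm10. No deposited cell types were used. Doublets were not removed, and Scrublet (scanpy 1.11.5, assumed rate 0.8% per 1000 barcodes) scored them. The insulin+Gcg barcodes were chosen by their hormone shares. These barcodes and all gene lists were chosen with earlier results of these data known. Some genes of the lists are not reported here and were left out of all list sums, counts and medians.

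All pairs of 1 insulin-only and 1 Gcg-only barcode of a library were summed, and those meeting the rule gave the pair level. Counts were summed per class and scaled to UMIs of genes other than 7 hormone genes, because hormones took 42.9% of UMIs in Tg7 and 54.6% in Wild-type insulin+Gcg barcodes. A gene needed 50 UMIs observed plus expected, and a call a 2-fold ratio. Shares have exact Clopper-Pearson intervals, levels Poisson intervals and ratios conditional binomial intervals, and a share of 0 is bounded by 3 counts. UMIs are molecules, but barcodes of a library are not replicates, so no test was run. Scripts were tested on simulated data, with python 3.11.15, numpy 2.4.6, scipy 1.17.1 and edgeR 4.0.16 (TMM factors only) in R 4.3.3.

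Named genes were those of the rule, the other hormones and tdTomato; per list up to 4 measured genes with the largest ratio to pairs in the direction of the list median and 2 the other way, and all measured α- and β-cell factors; and the 10 highest and 10 lowest ratios to pairs and the 5 highest and 5 lowest of Tg7 over Wild-type, with at least 100 UMIs and without mitochondrial, ribosomal and unnamed genes. Other genes named as 2-fold apart from pairs or from both references were picked after their values were seen. Promoter and miRNA sequences are from RefSeq (GRCm38.p6); 2 of the hormone genes of the rule, Ins1 and Gcg, had an entry. Alternatives were other hormone thresholds and barcode filters, removal of called doublets or of barcodes with Sst or Ppy, stricter references, other scalings, equal weights, all pairs and other gene minimums.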

Additional observations from a re-analysis of the deposited data

How the results depend on the processing

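Of 96 alternative values for 14 results, 62 were the same within 1.5 times (counts) or counting error, 30 moved and 4 turned sign. With thresholds of 6% insulin and 8% Gcg there were 41 Tg7 and 6 Wild-type insulin+Gcg barcodes, 75.2% of pairs met the rule, 3 genes lay at least 2-fold above and 3 below pairs, the α-cell genes had a median log2 ratio of 0.029 and the β-cell genes of -0.060 to pairs (reversed from -0.21 and 0.14), the β-cell genes had 2.86 over Gcg-only barcodes, and 22 genes were lower in Tg7 than in Wild-type barcodes. With 10% of each hormone 22 Tg7 and 3 Wild-type barcodes were left, and without those with Sst or Ppy 6 in Wild-type. The α- and β-cell medians beside pairs thus depend on the thresholds, and the cause was not tested. The stricter barcode filter gave 97.5% of pairs meeting the rule. References under 1% of the other hormone gave 87.9% of pairs meeting it. Without barcodes with Sst or Ppy 4 genes were higher than in pairs, and without called doublets 4 were lower. Equal weights gave 36 genes above pairs and a β-cell median of 5.77 over Gcg-only barcodes, and TMM factors 4.99 for that median. A minimum of 100 UMIs gave 2 genes higher and 2 lower than in pairs, 5.05 for the β-cell median, and 7 genes higher and 19 lower in Tg7 than in Wild-type. With no minimum 1362 and 2877 genes passed 2-fold, most on few UMIs, and the α-cell median over insulin-only and the β-cell median over Gcg-only barcodes were 1.74 and 5.05. Scaled to all UMIs, 4 genes were below pairs, and 78 were higher and 20 lower in Tg7 than in Wild-type barcodes, and with TMM factors 30 were higher. In an alternative chosen after seeing the data, Wild-type barcodes with Sst were left out. The medians beside pairs then turned to 0.41 for the α-cell and 0.12 for the β-cell genes, against -0.42 and -0.59 with them. Fewer genes of both lists were measured without these barcodes. No paired analysis was possible because each group is 1 library.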
